A study of Homo sapiens with 9 samples.

Results

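The genes described here are 43 interferon-stimulated genes, taken by name from general knowledge of the type I interferon response and matched by symbol to the 60664 genes listed in the count files. They were chosen with earlier results of these data known, so the choice was not blind to the data. All 43 were found, and all 43 passed the filter on low counts, which kept 18264 genes. They were measured by RNA sequencing in MDA-MB-231 cells, a human line of triple-negative breast cancer, in 3 groups of 3 samples each collected on day 6. The study asked what thick extracellular fluid does to cells, and whether a response needs TRPV4, a calcium-permeable ion channel. The scramble control (SC) cells have the genotype WT and carry a scramble RNA that targets no gene. They were kept in medium of 0.77 cP or of 8 cP, the thicker medium being made with methylcellulose. The third group carries a short hairpin RNA against TRPV4 (shTRPV4) and was kept at 8 cP. The groups are called SC 0.77 cP, SC 8 cP and shTRPV4 8 cP below. Per the study's methods, scramble and hairpin were both introduced with a lentivirus on the pLKO.1 puro backbone, and the transduced cells were kept under puromycin. All 3 groups therefore share the viral vector and the drug, the knockdown rests on a single hairpin sequence, and no hairpin cells in thin medium are analysed here.

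Interferons are secreted proteins that cells release when they sense foreign nucleic acid. Type I interferons bind the receptor pair IFNAR1 and IFNAR2, whose kinases JAK1 and TYK2 phosphorylate STAT2 and related factors. STAT2 acts with IRF9 in a complex that binds the interferon-stimulated response element (ISRE) in promoters, while interferon gamma acts mainly through another element, the gamma-activated site (GAS). The genes switched on in this way bind or degrade viral RNA, block viral entry and exit, and tune the pathway itself. Many of them are also transcribed at a low level with no virus present. Double-stranded RNA, and in some settings hairpin vectors, can set off the same response, so the genes also serve as a check of a knockdown line.

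The binding elements are shown here because interferon acts on many genes of the class through them, and each stretch comes from the promoter of a gene whose values follow. The stretches were read from RefSeq promoter windows, which run from 250 bases before to 50 bases after a start of transcription on GRCh38.p14. Of the 43 genes, 34 had a window (45 windows in all), and the other 9, IFIT2, UBA7, USP18, OAS2, OASL, MX2, IFITM2, IRF7 and TRIM22, are named only. Both elements were searched as patterns of letters on both strands, with GAAANNGAAA as the core of the ISRE and TTCNNNGAA as the GAS. Capitals mark the match, which for the ISRE core may read GAAANNGAAA or its reverse complement TTTCNNTTTC. The stretches are 30 bases long and lie before the start of transcription, written 5′ to 3′ on the strand of the gene.
IRF1, GAS, chr5:132490878-132490907 (minus strand): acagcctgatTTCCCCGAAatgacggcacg
IFIT1, ISRE core, chr10:89392510-89392539 (plus strand): cactttccccTTTCGGTTTCcctaggtttc
ISG20, ISRE core, chr15:88638937-88638966 (plus strand): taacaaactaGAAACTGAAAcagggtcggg
ISG15, ISRE core, chr1:1013380-1013409 (plus strand): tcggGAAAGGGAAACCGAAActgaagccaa
MX1, ISRE core, chr21:41431844-41431873 (plus strand): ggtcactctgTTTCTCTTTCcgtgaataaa
IFITM1, ISRE core, chr11:313990-314019 (plus strand): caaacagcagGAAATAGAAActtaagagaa
IFI44, ISRE core, chr1:78649759-78649788 (plus strand): gggcacactgagTTTCAGTTTCctttctct
IFITM3, ISRE core, chr11:320876-320905 (minus strand): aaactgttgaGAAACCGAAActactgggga
RSAD2, ISRE core, chr2:6877622-6877651 (plus strand): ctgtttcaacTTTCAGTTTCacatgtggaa
HERC5, ISRE core, chr4:88457035-88457064 (plus strand): aaacattatgTTTCGTTTTCcactggagct
BST2, ISRE core, chr19:17405735-17405764 (minus strand): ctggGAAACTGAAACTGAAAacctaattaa
IFI6, ISRE core, chr1:27672266-27672295 (minus strand): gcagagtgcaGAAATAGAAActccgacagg

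In the GENCODE 44 annotation, whose genes can begin further upstream, 5 of these 12 stretches lay upstream of the whole gene, 4 in an intron of the gene's longer transcripts, 2 partly in an exon and 1 inside an exon. Among the 34 genes with a window, 24 (70.6%) held the ISRE core, against 3.57% of all 35116 promoter windows and 3.94% of the 12108 tested genes with a window. The GAS pattern was found in 12 of the 34 (35.3%), against 7.66% of all windows and 8.6% of the tested genes. In the window with most matches, 11 of the genes held 2 ISRE cores and 4 held 3. The 2 patterns overlapped in the windows of BST2, EPSTI1, IFI27, IFITM1 and MX1. A match is a description of letters, and whether any factor was bound there was not measured.

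**Figure D1:**
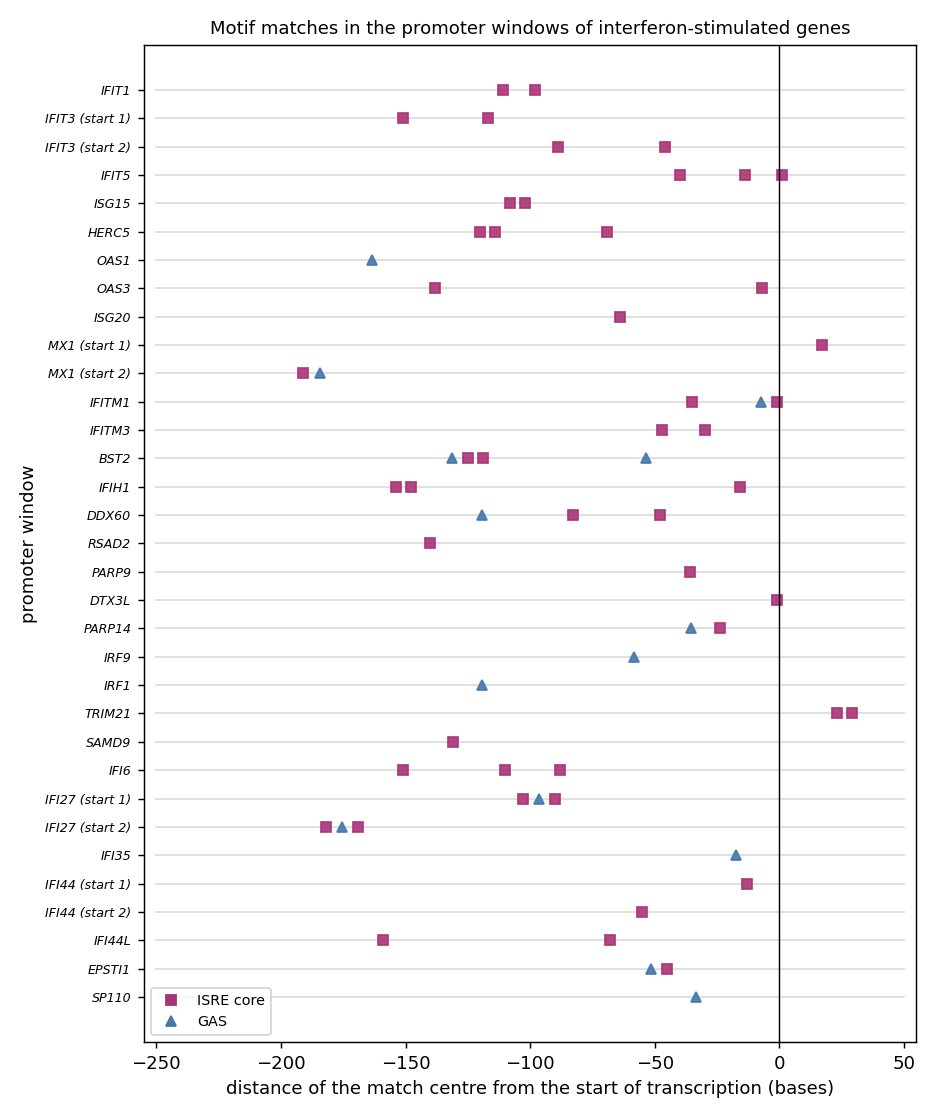
Position of ISRE core matches (squares) and GAS matches (triangles) in the RefSeq promoter windows of the interferon-stimulated genes; the x axis gives the distance in bases of the match from the start of transcription (0), and each line is a window that holds at least 1 match. ISRE cores were found in 24 of the 34 genes with a window and GAS matches in 12.

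Library totals ran from 64571681 to 103518036 counts, and the 43 genes took between 0.148% and 0.218% of them. Levels are given as CPM, edgeR's count scaled to the library size after correction by edgeR's trimmed mean of M values (TMM), and as FPKM, the same per 1000 bases of exon, wherever genes are compared with each other. Exon length here joins all annotated exons of a gene over its transcripts, so it can exceed the length of its RNA. It was 13021 bases for OAS1 and 1101 for BST2, and an order of genes by FPKM depends on it. TRPV4 had between 24 and 64 counts in the 6 SC samples and 7, 1 and 13 in the shTRPV4 samples, a log2 fold change against SC 8 cP cells of -2.51 ± 0.49 (SE, edgeR, adjusted p = 0.00219). At 1 to 13 counts this check of the hairpin is imprecise. The line's markers VIM, CD44 and EGFR were abundant, ESR1 and PGR had at most 4 counts and CDH1 at most 12, while ERBB2 (5749 to 9862 counts) and EPCAM (1205 to 1967 counts) were present. Of 7 leukocyte markers, PTPRC, which all white blood cells carry, had 5 to 17 counts. The plasmacytoid dendritic cell genes LILRA4 and CLEC4C were at 0 throughout. The third marker of these cells, IL3RA, had 25 to 43 counts in SC 0.77 cP cells, 15 to 33 in SC 8 cP cells and 38 to 42 in shTRPV4 cells, and its log2 fold change between the lines at 8 cP was 0.86 (95% interval 0.19 to 1.54, edgeR adjusted p = 0.0686), with no overlap of samples. The summed leukocyte level nevertheless moved with the groups, from 5.99 to 6.95 CPM in SC 0.77 cP cells to 4.42 to 5.31 in SC 8 cP cells and 3.43 to 4.64 in shTRPV4 cells, nearly all of it CD14. Without CD14 it was between 0.40 and 0.84 CPM in every sample. Mitochondrially encoded genes took 2.04% to 2.58% of the counts in SC samples and 3.28% to 3.40% in shTRPV4 samples, and the part of this in the differences below was not tested.

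In SC 0.77 cP cells the genes spanned more than 3 orders of magnitude per exon length. BST2, ISG15 and IFITM3 led with group means of 192, 163 and 85.6 FPKM, followed by IFIT2 (41.3), IFIT3 (32.8), IFITM2 (30.9) and IFIT1 (27.5). At the other end were OAS1 (0.24 FPKM), IFI44L (0.161) and IRF9 (0.0689). The cells therefore carried measurable RNA of the whole class with no added interferon named in the labels. The low value of IRF9, 25 to 54 counts per sample, carries a limit of counting, since 1544 of its exon bases are shared on the same strand with ENSG00000259529, and how reads on both genes were treated is not given in the sources used here.

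Taken over all 43 genes, the level was highest in SC 0.77 cP cells, lower in SC 8 cP cells and lowest in shTRPV4 cells. The summed level was 2075, 2198 and 1944 CPM in SC 0.77 cP cells, 1794, 1790.1 and 1645 in SC 8 cP cells, and 1451, 1576 and 1617 in shTRPV4 cells. No sample of one group reached the range of the next. On the log2 scale, with each gene set against its mean in SC 0.77 cP cells, the median gene stood at -0.01, 0.09 and -0.10 in the SC samples at 0.77 cP, at -0.16, -0.16 and -0.27 in those at 8 cP, and at -0.39, -0.33 and -0.36 in the shTRPV4 samples. The group means of 31 genes followed this same order, and the share of all genes that did so was not determined. The genes moved together between samples of a group, so the 31 are not independent of each other. In SC 0.77 cP cells, 3 of the 43 lay below the group mean in replicate 2 and 38 in replicate 3. For 6 genes, UBA7, MX1, PARP9, IRF9, IFI27 and DTX3L, SC 8 cP cells were lowest. SC 8 cP cells were highest for HERC6, OAS2, SAMD9 and SAMD9L, and shTRPV4 cells were highest for DTX3L, IFIT5 and OAS3. Because RNA was taken from whole cultures, fewer cells with the RNA and less RNA per cell cannot be told apart.

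**Figure D2:**
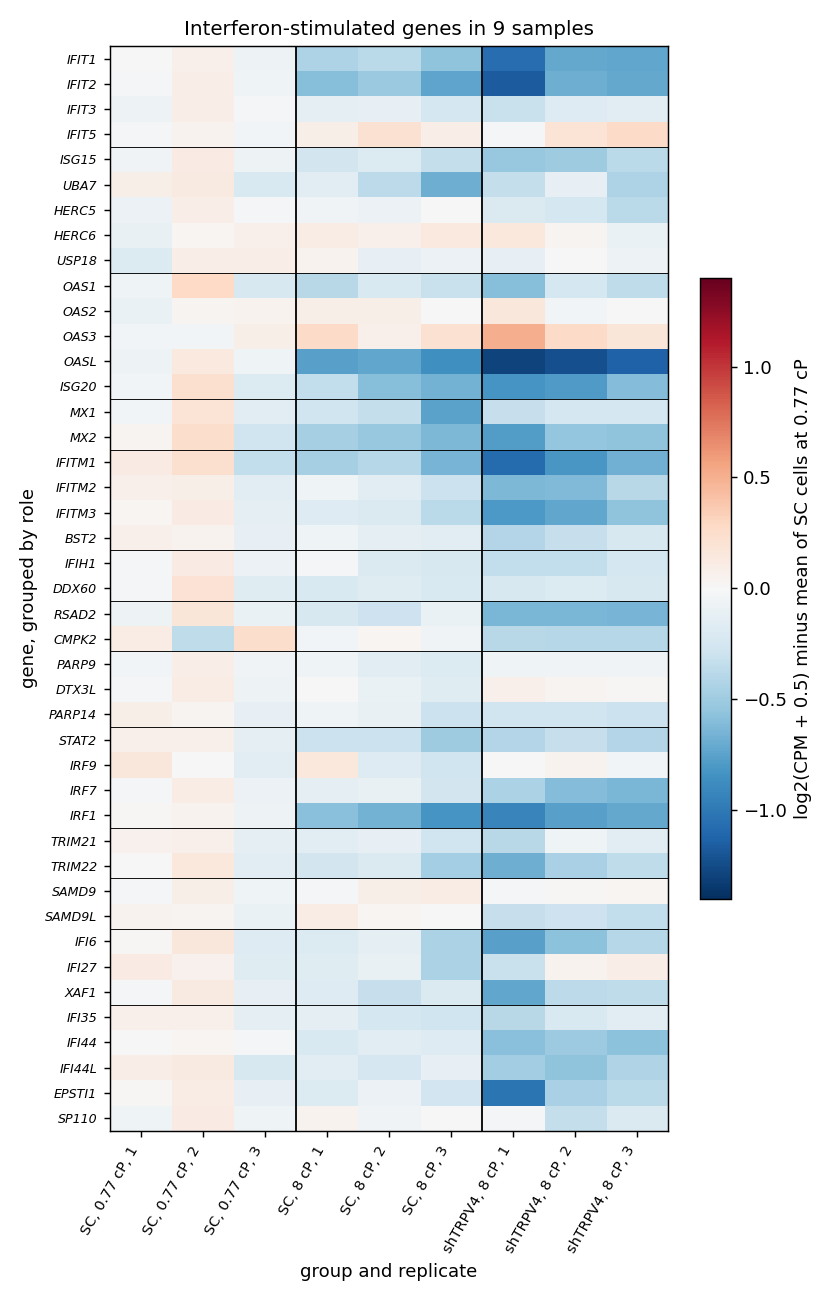
Level of each of the 43 interferon-stimulated genes (rows, grouped by role) in the 9 samples (columns), as the difference in log2(CPM + 0.5) from the mean of the 3 SC samples at 0.77 cP. The median of a column ran from -0.10 to 0.09 in SC 0.77 cP cells, from -0.27 to -0.16 in SC 8 cP cells and from -0.39 to -0.33 in shTRPV4 cells.

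Between SC 8 cP cells and SC 0.77 cP cells, 16 of the 43 genes were lower and none was higher by edgeR's quasi-likelihood test with a Benjamini-Hochberg adjusted p below 0.05 over all 18264 genes. In this comparison 9.69% of all genes tested were called lower and 9.57% higher. DESeq2 also gave 16 and 0, but UBA7 was not among its calls. At an unadjusted p below 0.05, 27 genes were lower and 1, OAS3, was higher. The share of all genes that passed this unadjusted threshold was not determined, so these 2 counts have no background. The median log2 fold change of the 43 genes was -0.21, against -0.0065 over all genes, and 23.2% of all genes lay below that median. The 16 called changes ran from -0.16 to -0.79 with a median of -0.43. The 3 samples of the groups did not overlap for 19 genes that were lower and 2 that were higher at 8 cP, against 19% and 19.4% of all genes. The count of 16 depended on single samples. It was 9 without replicate 1 of SC 0.77 cP cells, 8 without replicate 2 of that group and 8 without replicate 3 of SC 8 cP cells, and it rose to 22 without replicate 3 of SC 0.77 cP cells.

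Between shTRPV4 cells and SC cells, both at 8 cP, 13 of the 43 genes were lower and none was higher by edgeR, where 11% of all genes were called lower and 9.02% higher. DESeq2 again gave 13 and 0. At an unadjusted p below 0.05, 20 genes were lower and 1, DTX3L, was higher, and here too the share of all genes was not determined. The median log2 fold change was -0.17, against 0.00064 over all genes, with 22.7% of all genes below it. The called changes were moderate, from -0.20 to -0.48, and none reached 0.5 in size. The samples did not overlap for 17 genes that were lower and 1 that was higher, against 18.8% and 17.6% of all genes. The 13 calls fell to 9 without replicate 1 or without replicate 2 of SC 8 cP cells. When replicate 1 of shTRPV4 cells was left out, IFI27 was called higher (log2 fold change 0.30, edgeR adjusted p = 0.0216).

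Replicate 1 of shTRPV4 cells stood lowest of its group for several genes, among them IFIT1, IFIT2 and EPSTI1. Nothing in the labels says that the 3 samples of a group came from separate cultures, so the p-values measure the spread between these samples, which may be technical.

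**Figure D3:**
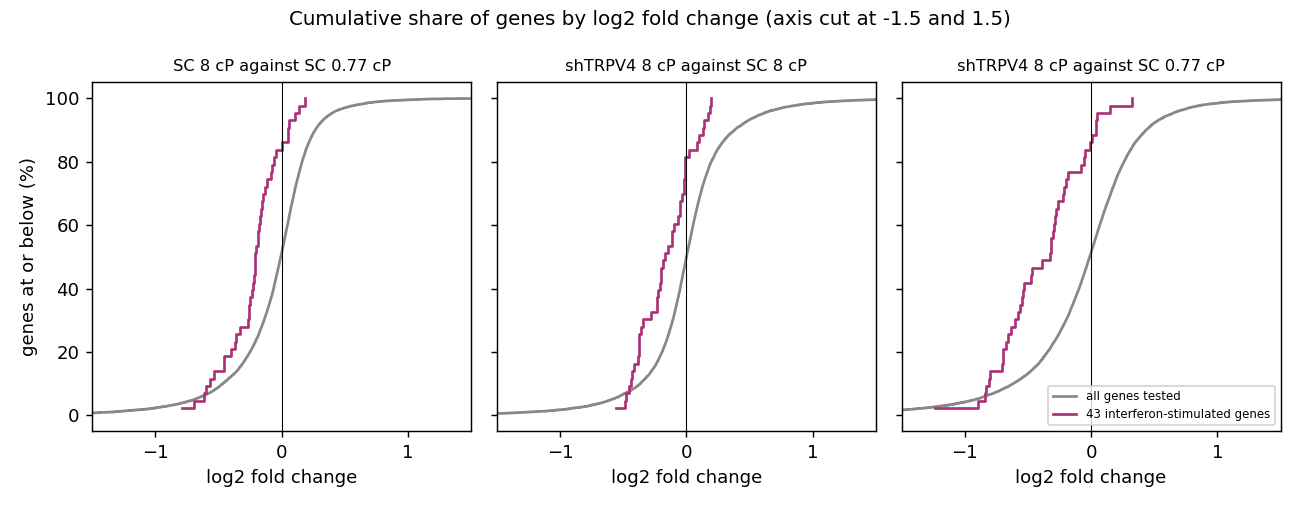
Share of genes (y axis, %) whose log2 fold change (x axis) is at or below a given value, for the 43 interferon-stimulated genes and for all 18264 genes tested, in 3 comparisons. The medians of the 43 genes are -0.21, -0.17 and -0.33, and those of all genes lie near 0.

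The transcription factors of the class passed the test in different comparisons. Since both comparisons use SC 8 cP cells, the step with viscosity and the step between the lines were not tested against each other for any gene. IRF1, which activates interferon genes and also responds to interferon gamma through a GAS, lies on chromosome 5 from 132440440 to 132508719 (ENSG00000125347). It had 91.6, 93.3 and 86.3 CPM in SC 0.77 cP cells, 59.8, 56.9 and 50.8 in SC 8 cP cells and 47.5, 53.01 and 54.7 in shTRPV4 cells. Both 8 cP groups lay well below all samples at 0.77 cP and overlapped each other. IRF1 fell by 38.2% in SC 8 cP cells (log2 fold change -0.69 ± 0.064, edgeR adjusted p = 3.5e-06), and between the 2 lines at 8 cP its log2 fold change was -0.11 (edgeR adjusted p = 0.258, 95% interval -0.25 to 0.03). Of its exon bases, 2805 are shared with genes on the other strand, chiefly IRF1-AS1. STAT2, the partner of IRF9 in the ISRE-binding complex, had 43.98, 44.2 and 38.1 CPM at 0.77 cP and 33.97, 33.99 and 29.5 at 8 cP in SC cells, and 31.5, 33.5 and 31.5 in shTRPV4 cells. Its pattern was like that of IRF1, a fall of 22.7% with viscosity (log2 fold change -0.37 ± 0.068, edgeR adjusted p = 0.00233) and a log2 fold change of -0.02 between the lines (-0.16 to 0.13, edgeR adjusted p = 0.906).

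IRF7, the factor that drives the interferon alpha genes, passed it between the lines. Its level was 17.6, 19.1 and 16.8 CPM in SC 0.77 cP cells, 16.2, 16.5 and 14.9 in SC 8 cP cells and 12.99, 11.5 and 11.2 in shTRPV4 cells. The groups at 0.77 and 8 cP did not overlap in SC cells, but the difference missed the threshold (log2 fold change -0.17, edgeR adjusted p = 0.118). All shTRPV4 samples lay below all SC samples, and IRF7 was 24.8% lower in them than in SC 8 cP cells (log2 fold change -0.41 ± 0.075, edgeR adjusted p = 0.00126). IRF9 had 0.552, 0.436 and 0.350 CPM, 0.546, 0.331 and 0.275 CPM and 0.437, 0.473 and 0.420 CPM in the same order of groups. These ranges overlapped, and the intervals of its log2 fold changes, -0.84 to 0.43 with viscosity and -0.44 to 0.83 between the lines, were the widest of all 43 genes.

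Among the RNA-binding IFIT proteins, which hold back the translation of foreign RNA, 3 of 4 fell with viscosity and 1 of 4 was lower in shTRPV4 cells. Of all genes tested, 9.69% and 11% were called lower in these comparisons. The 4 genes stand together on chromosome 10. IFIT1 (ENSG00000185745, 89392546 to 89406487), whose promoter holds a TTTC repeat of the ISRE core shown above, had 127, 133 and 120.3 CPM in SC 0.77 cP cells, 93.6, 97.7 and 85.7 in SC 8 cP cells and 60.4, 76.96 and 76.4 in shTRPV4 cells. The 3 groups did not overlap at any step. IFIT1 was 27.2% lower at 8 cP than at 0.77 cP (log2 fold change -0.46 ± 0.077, edgeR adjusted p = 0.00152) and 22.8% lower again in shTRPV4 cells (log2 fold change -0.37 ± 0.078, edgeR adjusted p = 0.0033). IFIT2 had 175, 189.9 and 172 CPM, 118, 125 and 107 CPM and 79.6, 111 and 109 CPM in the same order. It fell by 34.7% with viscosity (log2 fold change -0.62 ± 0.095, edgeR adjusted p = 0.000769), while the 2 lines at 8 cP overlapped (log2 fold change -0.22, edgeR adjusted p = 0.113). IFIT2 shares 524 exon bases with ENSG00000232110 on its own strand. IFIT3 fell by only 10.8% (log2 fold change -0.16 ± 0.055, edgeR adjusted p = 0.0495), a call that was lost in 8 of 9 fits that left out a sample. IFIT5 differed in direction, at 0.13 with viscosity (edgeR adjusted p = 0.16) and 0.02 between the lines (edgeR adjusted p = 0.876).

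**Figure D4:**
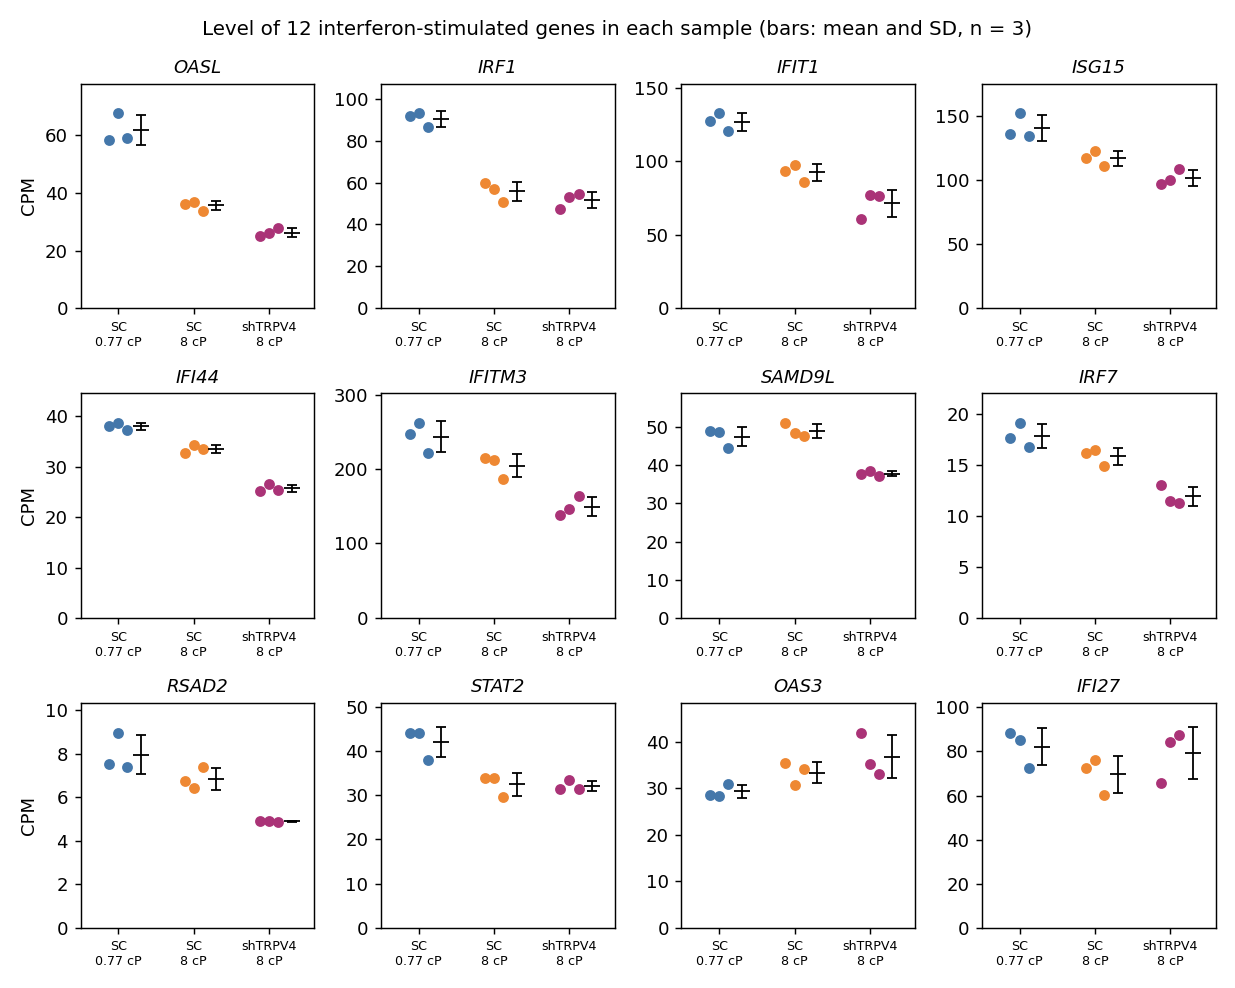
Level in CPM (y axis, from 0) of 12 interferon-stimulated genes in each sample of the 3 groups; points are samples, and the bars beside them give the mean and SD (n = 3). OASL was called lower in both comparisons, IRF1 and STAT2 in the first only, and SAMD9L, IRF7 and RSAD2 in the second only. IRF7 and RSAD2 were also lower in the first, without passing the test. OAS3 runs the other way.

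ISG15, a ubiquitin-like protein that is joined to other proteins, stepped down in both comparisons. Its level was 136, 153 and 134 CPM, 117, 123 and 111 CPM and 97.2, 99.9 and 109 CPM in SC 0.77 cP cells, SC 8 cP cells and shTRPV4 cells, with no overlap between groups. The falls were 16.8% with viscosity (log2 fold change -0.27 ± 0.058, edgeR adjusted p = 0.00659) and 13.2% between the lines (log2 fold change -0.20 ± 0.059, edgeR adjusted p = 0.023), the latter lost in 4 of 9 fits without a sample. UBA7, the enzyme that activates ISG15, had 25.3, 26.1 and 20.5 CPM, 21.4, 18.3 and 14.6 CPM and 18.8, 21.99 and 17.5 CPM, and its called fall with viscosity (log2 fold change -0.40 ± 0.12, edgeR adjusted p = 0.0297) came with overlapping samples. That call was lost with DESeq2 and in 4 of 9 fits without a sample, replicates 1 and 2 of SC 0.77 cP cells and 2 and 3 of SC 8 cP cells, with adjusted p-values of up to 0.15. HERC5, the ligase that attaches ISG15, was at 39.2, 44.3 and 40.9 CPM, 39.9, 39.1 and 41.7 CPM and 35.9, 34.9 and 31.8 CPM. Only its shTRPV4 samples stood apart, 15.04% lower than SC 8 cP cells (log2 fold change -0.24 ± 0.059, edgeR adjusted p = 0.0106), and the fold change with viscosity was -0.04 (edgeR adjusted p = 0.659). HERC6, a relative of HERC5, and USP18, the protease that removes ISG15, passed the test in none of the comparisons. USP18 had at most 2.31 CPM in any sample.

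The OAS enzymes make a short chain of adenylates on double-stranded RNA that sets off the decay of RNA, and OASL is a family member without that activity that strengthens sensing by RIG-I. OASL, on chromosome 12 from 121017763 to 121039246 (ENSG00000135114), was the gene of the 43 that changed most in SC cells. It had 58.4, 67.8 and 59.01 CPM in SC 0.77 cP cells, 36.2, 36.9 and 33.8 in SC 8 cP cells and 24.9, 25.99 and 27.9 in shTRPV4 cells. No groups overlapped. The fall was 42.2% with viscosity (log2 fold change -0.79 ± 0.064, edgeR adjusted p = 7.15e-07) and a further 26.4% between the lines (log2 fold change -0.44 ± 0.065, edgeR adjusted p = 0.000213), so that shTRPV4 8 cP cells held 57.5% less than SC 0.77 cP cells (log2 fold change -1.23 ± 0.065, edgeR adjusted p = 2.01e-09). OAS1 and OAS2 passed in neither comparison of SC 8 cP cells, with log2 fold changes with viscosity of -0.36 and 0.05. OAS1 was called lower in shTRPV4 8 cP cells than in SC 0.77 cP cells (log2 fold change -0.48 ± 0.15, edgeR adjusted p = 0.0208), though not without replicate 2 of SC 0.77 cP cells or replicate 1 of shTRPV4 cells. OAS3 ran upwards, with 28.6, 28.5 and 30.995 CPM, 35.4, 30.8 and 34.1 CPM and 42.01, 35.3 and 33.1 CPM in the 3 groups. Neither single step of OAS3 passed the test, but it was the only one of the 43 genes that was higher in shTRPV4 8 cP cells than in SC 0.77 cP cells (log2 fold change 0.33, edgeR adjusted p = 0.00338). The exonuclease gene ISG20 had 9.17, 11.1 and 8.17 CPM at 0.77 cP, 7.31, 6.06 and 5.75 at 8 cP and 5.09, 5.20 and 5.98 in shTRPV4 cells. Its fall with viscosity was 32.4% (log2 fold change -0.56 ± 0.12, edgeR adjusted p = 0.00451), and the lines at 8 cP overlapped (log2 fold change -0.23, edgeR adjusted p = 0.192).

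Both MX genes, which encode dynamin-like GTPases that block viral replication, fell with viscosity and passed no test between the lines. With viscosity, 9.69% of all genes tested were called lower. MX1 had 16.9, 20.02 and 15.5 CPM in SC 0.77 cP cells and 14.3, 13.7 and 10.2 at 8 cP, a fall of 27.1% (log2 fold change -0.46 ± 0.11, edgeR adjusted p = 0.0106), and 13.8, 14.5 and 14.6 CPM in shTRPV4 cells. The shTRPV4 samples lay within or just above the range of SC 8 cP cells, with a log2 fold change of 0.17 (-0.06 to 0.41, edgeR adjusted p = 0.309). The call for MX1 was lost without replicate 2 of SC 0.77 cP cells and without replicate 3 of SC 8 cP cells, and 998 of its exon bases are shared with genes on the other strand. MX2 was at 6.36, 7.39 and 4.98 CPM, 4.33, 4.12 and 3.82 CPM and 3.37, 4.09 and 4.003 CPM. It was 34.1% lower at 8 cP (log2 fold change -0.60 ± 0.13, edgeR adjusted p = 0.00541), and the log2 fold change between the lines was -0.10 (edgeR adjusted p = 0.649).

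Of the 4 membrane restriction factors, 3 were called lower between the lines, and the samples of the 2 lines overlapped for none of the 4. Of all genes tested, 11% were called lower between the lines and 18.8% were lower without overlap. The IFITM proteins, encoded side by side on chromosome 11, stop viruses from fusing with the cell membrane. IFITM3 (ENSG00000142089, 319676 to 329475) had 247, 262 and 221 CPM in SC 0.77 cP cells, 215, 212 and 187 in SC 8 cP cells and 139, 146 and 164 in shTRPV4 cells. Each group lay below the one before it, by 15.9% with viscosity (log2 fold change -0.25 ± 0.072, edgeR adjusted p = 0.0238) and by 26.8% between the lines (log2 fold change -0.45 ± 0.072, edgeR adjusted p = 0.000431). IFITM2 had 52.2, 52.5 and 44.2 CPM, 47.3, 44.1 and 40.2 CPM and 31.9, 32.1 and 37.8 CPM. Its SC samples overlapped between viscosities (edgeR adjusted p = 0.135), and shTRPV4 cells were 22.7% lower (log2 fold change -0.37 ± 0.080, edgeR adjusted p = 0.00417). IFITM1, with 20.9, 22.6 and 15.04 CPM, 13.8, 14.4 and 12.04 CPM and 8.86, 10.7 and 11.9 CPM, was 30.9% lower with viscosity (log2 fold change -0.53 ± 0.13, edgeR adjusted p = 0.0106), and its fold change between the lines was -0.36 (edgeR adjusted p = 0.07). The viscosity calls of IFITM3 and IFITM1 were each lost without replicate 1 or 2 of SC 0.77 cP cells and without replicate 3 of SC 8 cP cells (adjusted p of up to 0.143 and 0.0679 by edgeR). The IFITM genes are related copies, and how reads that match more than one of them were counted was not tested. IFITM1 shares 351 exon bases with ENSG00000288681 on its strand. BST2, known as tetherin because it holds budding virus on the cell, had 222, 219 and 195 CPM, 203, 194 and 191 CPM and 159, 169 and 181 CPM. Viscosity did not separate its samples (edgeR adjusted p = 0.186), and shTRPV4 cells were 13.3% lower than SC 8 cP cells (log2 fold change -0.21 ± 0.057, edgeR adjusted p = 0.0196). The call was lost without replicate 1 or 2 of either group, with edgeR adjusted p-values of up to 0.0919.

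RSAD2, or viperin, makes a nucleotide that ends viral RNA chains. It had 7.52, 8.98 and 7.39 CPM in SC 0.77 cP cells, 6.74, 6.42 and 7.38 in SC 8 cP cells and 4.91, 4.91 and 4.85 in shTRPV4 cells. All shTRPV4 samples lay below all SC samples. They were 28.5% below SC 8 cP cells (log2 fold change -0.48 ± 0.092, edgeR adjusted p = 0.00173). The SC samples at 0.77 and 8 cP did not overlap, but the step with viscosity did not pass (log2 fold change -0.21, edgeR adjusted p = 0.109). CMPK2, a nucleotide kinase encoded next to RSAD2 on chromosome 2, had 1.37, 0.857 and 1.56 CPM, 1.18, 1.27 and 1.18 CPM and 0.830, 0.818 and 0.818 CPM. Its shTRPV4 samples lay below all others, yet at these levels the fold change of -0.56 missed the threshold (edgeR adjusted p = 0.061). The 2 genes share 351 exon bases on opposite strands.

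SAMD9L, which limits translation in infected cells, passed the test between the lines. It had 48.96, 48.9 and 44.6 CPM in SC 0.77 cP cells, 51.2, 48.4 and 47.7 in SC 8 cP cells and 37.7, 38.6 and 37.2 in shTRPV4 cells. The 6 SC samples overlapped, and every shTRPV4 sample lay below them. The log2 fold change was 0.05 with viscosity (-0.06 to 0.16, edgeR adjusted p = 0.541) and -0.38 between the lines (edgeR adjusted p = 0.000108). SAMD9, its neighbour on chromosome 7, had 47.2, 50.99 and 46.01 CPM, 47.2, 50.9 and 51.6 CPM and 47.2, 48.7 and 48.8 CPM, with intervals of -0.06 to 0.17 and -0.16 to 0.06 for the 2 log2 fold changes. The difference between the pair was not itself tested.

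IFI44, a gene of unsettled function on chromosome 1 from 78649796 to 78664078 (ENSG00000137965), had the smallest adjusted p of the 43 between the lines. Its level was 38.1, 38.8 and 37.2 CPM, 32.7, 34.3 and 33.5 CPM and 25.2, 26.6 and 25.4 CPM in SC 0.77 cP cells, SC 8 cP cells and shTRPV4 cells. The 3 groups were fully apart, with falls of 11.9% (log2 fold change -0.18 ± 0.048, edgeR adjusted p = 0.0154) and 23.2% (log2 fold change -0.38 ± 0.048, edgeR adjusted p = 6.19e-05). The first was lost without replicate 1 or 2 of SC 0.77 cP cells and without replicate 1 or 3 of SC 8 cP cells (edgeR adjusted p of up to 0.0736), the second in no fit without a sample. IFI44L, beside it, had 1.09 to 2.07 CPM, and its fold change of -0.43 between the lines did not pass (edgeR adjusted p = 0.0639). IFI6, which inhibits cell death, had 15.3, 16.98 and 13.3 CPM, 13.2, 13.8 and 11.03 CPM and 8.73, 10.02 and 11.3 CPM. It was called 21.05% lower between the lines (log2 fold change -0.34 ± 0.11, edgeR adjusted p = 0.0376), although the highest shTRPV4 sample exceeded the lowest SC sample at 8 cP, and the call was lost in 5 of 9 fits without a sample (edgeR adjusted p of up to 0.154). EPSTI1, lower in shTRPV4 cells as well (log2 fold change -0.48 ± 0.16, edgeR adjusted p = 0.0419), lost its call in 6 of 9 fits without a sample. IFI27, a mitochondrial protein gene often used as a marker of interferon exposure, had 88.6, 85.4 and 72.5 CPM, 72.6, 76.1 and 60.2 CPM and 65.6, 84.4 and 87.6 CPM. These ranges overlapped, and the log2 fold change between the lines was 0.19 (-0.03 to 0.40, edgeR adjusted p = 0.233).

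Among the other genes, IFI35 and TRIM22 were called lower with viscosity (-0.23 and -0.33), with edgeR adjusted p-values of 0.0392 and 0.0482. Both calls were lost with the replicate number as a block, and in 5 and 6 of 9 fits without a sample. The remaining genes passed in neither of these comparisons. They are IFIH1, which encodes the RNA sensor MDA5, its fellow helicase DDX60, the ADP-ribosylation factors PARP9, DTX3L and PARP14, the antibody receptor TRIM21, the cell death gene XAF1 and the nuclear body protein SP110. Their log2 fold changes lay between -0.26 (XAF1) and 0.00054 (SP110) with viscosity and between -0.28 (XAF1) and 0.13 (DTX3L) between the lines.

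**Figure D5:**
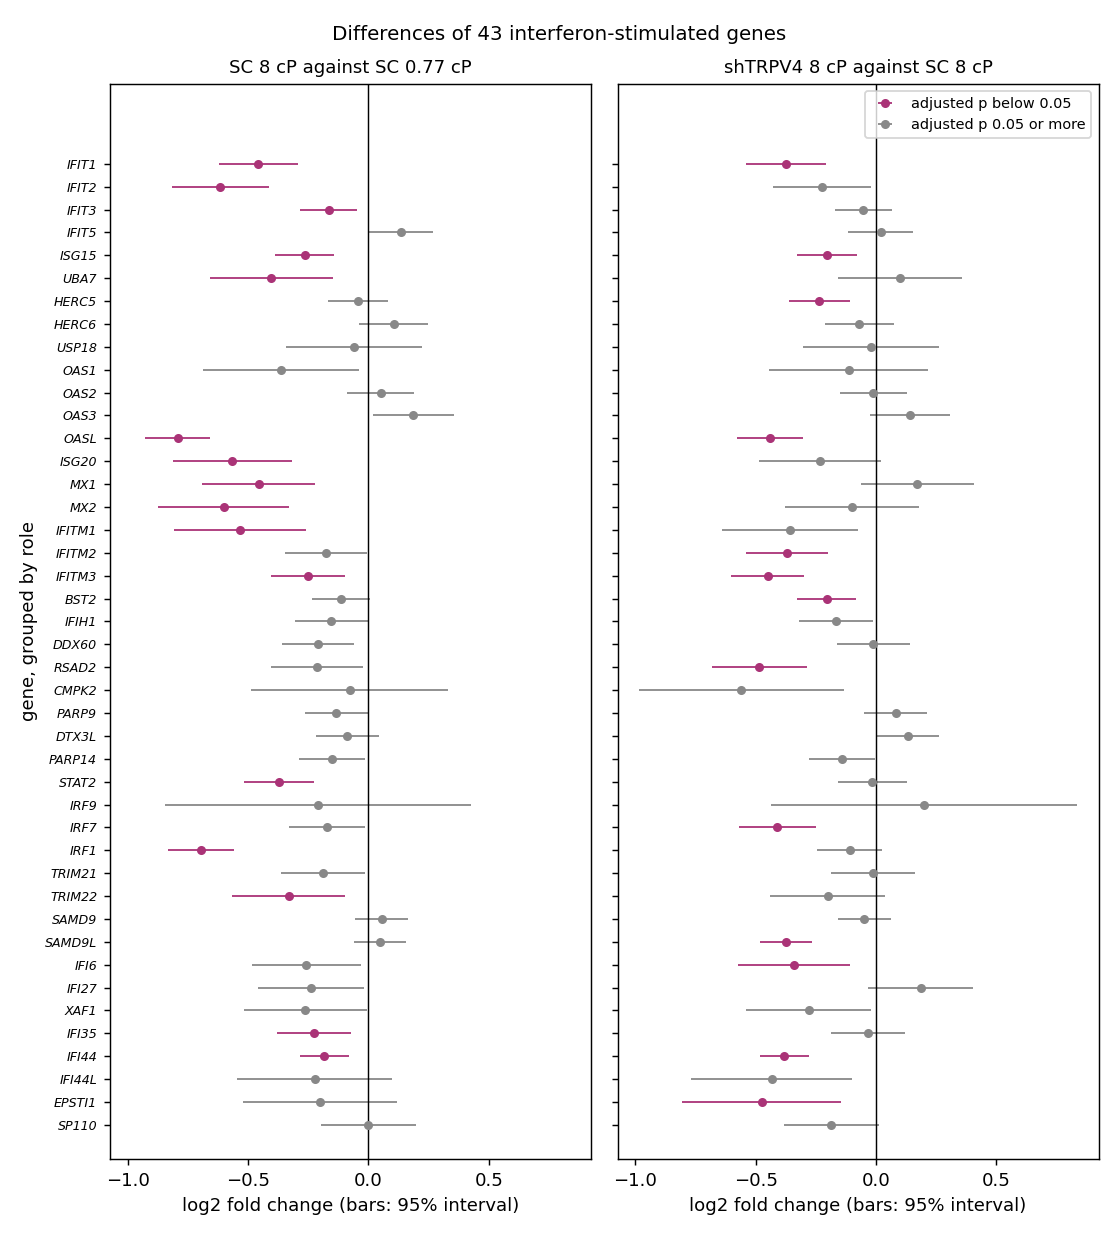
Log2 fold change (x axis) with its 95% interval for each of the 43 interferon-stimulated genes, for SC 8 cP cells against 0.77 cP and for shTRPV4 8 cP against SC 8 cP. Purple points have an edgeR adjusted p below 0.05, 16 in the left panel and 13 in the right, and all of them lie below 0.

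Whether the hairpin line differs from the scramble line in its interferon-stimulated genes is a usual check of a knockdown. In shTRPV4 8 cP against SC 8 cP, the largest estimates were those of IRF9 (0.20), IFI27 (0.19) and MX1 (0.17). Among the genes with a mean of at least 10 CPM, no 95% interval reached above 0.41, the bound of MX1. Upper bounds were below 0 for IFIT1 (-0.21), ISG15 (-0.08), OASL (-0.30) and RSAD2 (-0.29), and they were 0.07 for IFIT3, 0.22 for OAS1, 0.26 for USP18 and 0.40 for IFI27. IFI27 was called higher with no filter on low counts (0.19, edgeR adjusted p = 0.00772) and, as given above, without replicate 1 of shTRPV4 cells. Of 32 other interferon-induced genes, taken up below, 6 were called higher and 3 lower, against 9.02% and 11% of all genes. Among the 6 were PARP12 (log2 fold change 0.33, edgeR adjusted p = 0.000601) and PLSCR1 (0.24, edgeR adjusted p = 0.00533). Both lines carry the vector, so a response that they share would not appear in this comparison.

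The interferons themselves were not detected as RNA. Of 14 interferon genes of types I, II and III, none passed the filter, and IFNB1 was at 0 counts in every sample, where the floor of 3 counts corresponds to 0.029 to 0.047 CPM. The highest value was 1 count, of IFNL1, in 3 samples.

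Across both steps, in shTRPV4 8 cP cells against SC 0.77 cP cells, 30 of the 43 genes were lower and 1 was higher by edgeR, with 22% of all genes called lower and 20.4% higher. This contrast differs in both viscosity and line and shares its samples with the other comparisons. The median log2 fold change was -0.33. Samples did not overlap for 30 lower genes and 1 higher gene, against 26.1% and 24.5% of all genes. The largest falls were those of OASL (57.5%), IFITM1 (46.1%), IFIT2 (44.1%), IFIT1 (43.8%) and IRF1 (42.7%), with edgeR adjusted p-values of 2.01e-09, 6.76e-05, 6.25e-06, 1.01e-06 and 1.85e-07.

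Upstream of the class stand the receptors and their kinases. For the counts that follow, the shares of all genes called lower and higher were 9.69% and 9.57% with viscosity. They were 11% and 9.02% between the lines. Of 9 receptor and kinase genes, none was lower and 1 was higher with viscosity, IFNAR1 (log2 fold change 0.20 ± 0.053, edgeR adjusted p = 0.0185). Between the lines, IFNLR1, the receptor of type III interferons, was higher (log2 fold change 0.60 ± 0.11, edgeR adjusted p = 0.00163) and IFNGR1 lower (log2 fold change -0.23 ± 0.073, edgeR adjusted p = 0.0354). IFNAR2 had only 38 to 92 counts and shares 2038 exon bases with a read-through gene, so its low level is uncertain.

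Of 5 feedback inhibitors, SOCS1, which blocks JAK kinases and is induced by the same signal, had a larger estimate with viscosity than any of the 43 genes. It had 14.4, 15.9 and 15.3 CPM in SC 0.77 cP cells, 7.70, 6.79 and 6.83 in SC 8 cP cells and 5.48, 5.43 and 5.63 in shTRPV4 cells. The groups were apart at each step, with falls of 53.1% (log2 fold change -1.09 ± 0.074, edgeR adjusted p = 9.02e-08) and 22.4% (log2 fold change -0.37 ± 0.077, edgeR adjusted p = 0.00361). SOCS3 passed no test with viscosity (edgeR adjusted p = 0.516) and was 33.4% lower in shTRPV4 cells (log2 fold change -0.59 ± 0.066, edgeR adjusted p = 1.99e-05). In all, 1 of the 5 was lower with viscosity, where 9.69% of all genes were called lower. Between the lines 3 were lower and 2 higher, against 11% and 9.02% of all genes.

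Of 16 genes of nucleic acid sensing, 15 were tested. The counts below stand against 9.69% of all genes called lower and 9.57% higher with viscosity, and 11% and 9.02% between the lines. With viscosity 3 were lower, STING1 (log2 fold change -0.46 ± 0.082, edgeR adjusted p = 0.00193), DHX58 (log2 fold change -0.44 ± 0.11, edgeR adjusted p = 0.0108) and IKBKE, and 2 were higher, EIF2AK2 and TRAF3. Between the lines 2 were lower, IFI16 (log2 fold change -0.26 ± 0.048, edgeR adjusted p = 0.00127) and TLR3, and 1, TRAF3, was higher. RIGI, the gene of the sensor RIG-I, had 70 to 118 counts and shares 4471 exon bases with ENSG00000288684. Its log2 fold changes were -0.11 and -0.01 (edgeR adjusted p = 0.695 and 0.973).

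A further 32 interferon-induced genes outside the 43 were mixed in direction. With viscosity 6 were lower and 4 higher (18.8% and 12.5%), against 9.69% and 9.57% of all genes tested. Between the lines 3 were lower and 6 higher (9.38% and 18.8%), against 11% and 9.02% of all genes tested. TNFSF10, the death ligand TRAIL, fell by 47.4% with viscosity (log2 fold change -0.93 ± 0.17, edgeR adjusted p = 0.00235). PNPT1, a mitochondrial RNA exonuclease, was higher in both comparisons (0.36 and 0.25, edgeR adjusted p = 0.00317 and 0.0184), as was the helicase gene DDX60L (0.24 and 0.25, edgeR adjusted p = 0.00668 and 0.00332). GBP3, a guanylate-binding protein, was 36.2% lower in shTRPV4 cells (log2 fold change -0.65 ± 0.051, edgeR adjusted p = 6.14e-07). The median of the 32 genes was -0.08 with viscosity and 0.02 between the lines. Of 8 genes typical of interferon gamma, 6 were tested. GBP4 was lower in both comparisons (-0.46 and -0.61, edgeR adjusted p = 0.0198 and 0.00404), and HLA-DRA was lower between the lines (log2 fold change -0.56 ± 0.13, edgeR adjusted p = 0.0061).

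The promoter elements shown above can be set beside these changes for the 34 genes with a window. With viscosity, the 24 genes with an ISRE core had a median log2 fold change of -0.19 and the 10 without one a median of -0.22, and 8 and 3 of them were called lower. Between the lines the medians were -0.18 and -0.11, and 9 of 24 and 1 of 10 were called lower. Of all genes tested, 9.69% were called lower with viscosity and 11% between the lines. The share called among all genes with an ISRE core was not determined. The 12 genes with a GAS had medians of -0.22 and -0.11 in the 2 comparisons, and the 22 without one -0.17 and -0.22. These are descriptions of 34 genes, and no test was made of them.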

How the data were processed

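The 9 samples of MDA-MB-231 cells form 3 groups of 3, which the sample titles give. Per the study's methods and processing notes, the authors mapped paired reads of stranded poly(A) libraries to GRCh38.p13 with HISAT2 2.2.1, handled alignments with SAMtools 1.1.3, and counted exon reads per gene of Ensembl release 104 with HTSeq 0.13.5. The authors deposited these as raw counts per gene without normalization. The strand option of the counting is not given in the sources used here. Exon bases shared with genes on either strand are therefore stated above, but only for some genes. A gene without such a statement may share bases too. Among these, TRIM22, IFI6 and UBA7 share 704, 216 and 109 bases with genes on their own strand. IFITM3, XAF1 and SP110 share 464, 2535 and 2068 with genes on the other strand.

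The counts were analysed in R 4.3.3 with edgeR 4.0.16: TMM scaling, filterByExpr (18264 of 60664 genes kept), and the quasi-likelihood test in a model with 1 coefficient per group over all 9 samples. P-values were adjusted by Benjamini-Hochberg over all genes tested, and a gene was called at an adjusted p below 0.05. Errors of log2 fold changes are standard errors. Symbols, positions and exon lengths come from GENCODE 44, and 60463 of the genes listed have a symbol. A floor of 3 counts covers counting error only, since the libraries hold no molecular identifiers. Precision was set by the spread between samples, a common biological coefficient of variation of 0.0633. On data simulated for shTRPV4 8 cP against SC 8 cP, 65.7% of 99 genes with a true log2 change of 0.5 were called by edgeR, as were 38.5% of 96 with one of 0.3 and 0.0281% of 17782 without a change. Far fewer genes changed in the simulation than were called in the data, where 11% were lower and 9.02% higher. The adjustment of p-values depends on that share, so these percentages do not give the power in the data.

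The 43 genes and the other lists were chosen with earlier results of these data known. Described with values in every sample are the 12 genes with the smallest adjusted p among those called in each comparison at 8 cP, with STAT2, IRF9, IRF7 and IRF1. IFNB1, RIGI, TRPV4 and up to 4 called genes of each other list are named as well. Values of other members, and IKBKE, were added after they had been seen. Some genes of the other lists are not reported here and are left out of the counts over those lists. No set test was made. Alternatives were DESeq2 1.42.0, upper quartile scaling, unfiltered genes, a minimum of 10 counts throughout, fits of 6 samples, a block for the replicate number, a log2 fold change of 0.5 or more in size, and the omission of each sample.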

Additional observations from a re-analysis of the deposited data

How the results depend on the processing

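The median log2 fold change of the 43 genes stayed below 0 under every alternative run, between -0.25 and -0.14 with viscosity and between -0.20 and -0.12 between the lines. Of the alternative values of the counts, the medians and TRPV4, 139 of 155 stayed within a set tolerance and 16 moved. The tolerance was wide for counts, where 22 in place of 16, or 9 in place of 13, was still within it. For a median it was the replicate spread of 0.069, and for TRPV4 only direction and call had to be kept. Leaving out a sample gave 8 to 22 lower and 0 to 1 higher genes with viscosity, 9 to 16 lower and 0 to 1 higher between the lines, and 26 to 31 lower and 1 to 2 higher for shTRPV4 8 cP against SC 0.77 cP, whose median ran from -0.40 to -0.30. Replicates 1 and 2 of SC cells at 0.77 cP and replicate 3 of SC cells at 8 cP moved the first count most (9, 8 and 8). A further requirement of 0.5 on the absolute log2 fold change left 6, 0 and 18 lower genes and, in the last comparison, 0 higher. With no filter on low counts 1, 1 and 2 genes were higher, OAS3, IFI27 and then OAS3 with IFIT5, and in a fit of only the 6 samples 1 gene, OAS3, was higher with viscosity. The cause was not tested. Leaving that requirement of 0.5 aside, in every other setting 8 of 16, 9 of 13 and 26 of 31 calls were kept.

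The replicate numbers did not pair the samples: deviations from the group means of the 9 pairs with the same number correlated at -0.0546 to 0.0904, and those of the 18 other pairs at -0.106 to 0.115. With the replicate number as a block, 15, 13 and 32 genes were lower, and 0, 0 and 1 higher. Genes of few counts, such as IRF9, CMPK2 and IFI44L, had wide intervals, although CMPK2 and IFI44L were called lower in shTRPV4 8 cP against SC 0.77 cP.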
